A study of Mus musculus with 4 samples.

Results

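Genes of the tumour necrosis factor (TNF) pathway and its NF-kB feedback were followed, 10 of the 32285 genes in the count matrices, chosen by name: Tnf, Tnfrsf1a, Tnfrsf1b, Tnfaip3, Nfkbia, Nfkbiz, Bcl3, Traf1, Relb and Nfkb1. The antibody against CD120b, the protein that Tnfrsf1b encodes, was read in the same cells. The cells came from ankle joint synovium of bone marrow chimeras in which CD45.1 B6 marrow was given to CD45.2 B6 hosts with the ankle shielded from irradiation, so that host cells of the ankle remained. Every group shares this chimera, and mice per library and their ages are not given in the sources used here. Arthritis (STIA) was induced by K/BxN serum in the hosts, and the sorted cells were live, CD45+ and CD11b+, and negative for Ly6G, SiglecF, CD64, MHCII, Ly6c and CD177. There was 1 library at each stage: baseline at day 0 (treatment none), peak at day 7, plateau at day 14 and resolution at day 56 after serum. "Clo-lip" stands in the titles of the 3 arthritis libraries and not in that of baseline, so in a ratio to baseline it cannot be told apart from arthritis.

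TNF is a cytokine that binds 2 receptors, a broadly expressed one encoded by Tnfrsf1a and one encoded by Tnfrsf1b that is strong on leukocytes. Both receptors can release NF-kB, dimers of subunits such as those encoded by Nfkb1 and Relb, from inhibitors of the IkB family, of which Nfkbia encodes the best known. NF-kB induces Tnf itself and also its own brakes, among them Nfkbia, Tnfaip3 and Bcl3. Macrophages are a major source of TNF in inflamed joints, and blocking TNF is a treatment of arthritis.

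The 10 genes lie on 10 annotated loci of GRCm38.p6, Tnf at chr17:35199367-35202007 and Tnfrsf1b at chr4:145212368-145246870. The brakes Tnfaip3 and Nfkbia lie at chr10:19000910-19015410 and chr12:55489409-55492647. The promoters below are shown because they set Tnf beside 2 of the 3 feedback genes that were higher in cells with a Tnf UMI in every library (the other, Nfkbiz, has no entry), each as the 250 bases before the RefSeq start on the minus strand, with matches to the NF-kB consensus in capitals.
Tnf promoter, chr17:35202008-35202257: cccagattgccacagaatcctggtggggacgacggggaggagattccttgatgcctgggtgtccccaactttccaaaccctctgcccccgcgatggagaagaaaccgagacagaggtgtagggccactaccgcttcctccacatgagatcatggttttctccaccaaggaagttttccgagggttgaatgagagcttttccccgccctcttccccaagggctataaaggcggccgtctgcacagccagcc
Tnfaip3 promoter, chr10:19015411-19015660: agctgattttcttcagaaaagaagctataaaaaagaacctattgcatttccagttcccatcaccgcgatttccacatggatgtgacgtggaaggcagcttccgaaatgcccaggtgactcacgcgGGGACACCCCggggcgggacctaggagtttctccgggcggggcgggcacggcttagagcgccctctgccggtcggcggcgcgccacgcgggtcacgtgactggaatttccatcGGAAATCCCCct
Nfkbia promoter, chr12:55492648-55492897: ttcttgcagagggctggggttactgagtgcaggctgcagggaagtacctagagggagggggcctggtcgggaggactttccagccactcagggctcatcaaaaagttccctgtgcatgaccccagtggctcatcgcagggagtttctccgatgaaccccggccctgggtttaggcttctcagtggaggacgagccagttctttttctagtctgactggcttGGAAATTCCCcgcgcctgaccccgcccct
The consensus, searched on both strands, was matched 2 times before Tnfaip3, starting 125 and 12 bases before the start, 1 time before Nfkbia, 29 bases before the start, and not in this window of Tnf; a further annotated Tnfaip3 start had no match. It was matched in 2 of the 7 members with a RefSeq entry and in 1281 of 32851 promoters of the same length (3.90%). Members without an entry were Relb, Nfkb1 and Nfkbiz. The CD120b antibody carried the 15-base tag GAAGCTGTATCCGAA, and its counts are of that tag.

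Barcodes were kept from 300 detected genes up and with no more than 10% of their UMIs (unique molecular identifiers, the counted RNA molecules) from mitochondrial genes, which left 1071, 5941, 2828 and 4611 cells at baseline, peak, plateau and resolution, 14451 in all. Gene UMIs of the kept cells totalled 11957871, 58705149, 29588064 and 27096151, and the median per kept cell was 7752, 8250, 6782.5 and 4912. A cell was called CD45.1 (donor) or CD45.2 (host) where 1 of these antibodies had at least 2-fold the UMIs of the other after adding 1 to each. This gave 808, 5576, 2402 and 3249 CD45.1 cells and 190, 219, 239 and 730 CD45.2 cells at the 4 stages. The 22 expression clusters included nonclassical monocyte-like, classical monocyte-like and macrophage-like ones, and 6 stayed unnamed. Against the sort, clusters 3 and 9 were macrophage-like and cluster 2 was led by Aif1, Apoe and H2-Aa. Clusters 4 and 7 (1206 and 901 cells) were classical monocyte-like, named from a marker list that includes Ly6c2. Small neutrophil-like, basophil-like, NK-like, B-like, mast-like and fibroblast-like clusters were also present. The neutrophil marker list summed to 25975 CPM (counts scaled to the same total of gene UMIs, 1000000, in each library) at baseline and to 770, 196 and 1092 CPM later. Levels are CPM of all gene UMIs, and their 95% intervals cover counting error only. With 1 library a stage there is no replicate and no test between stages; a stage ratio is counted where it passes 2-fold.

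**Figure D1:**
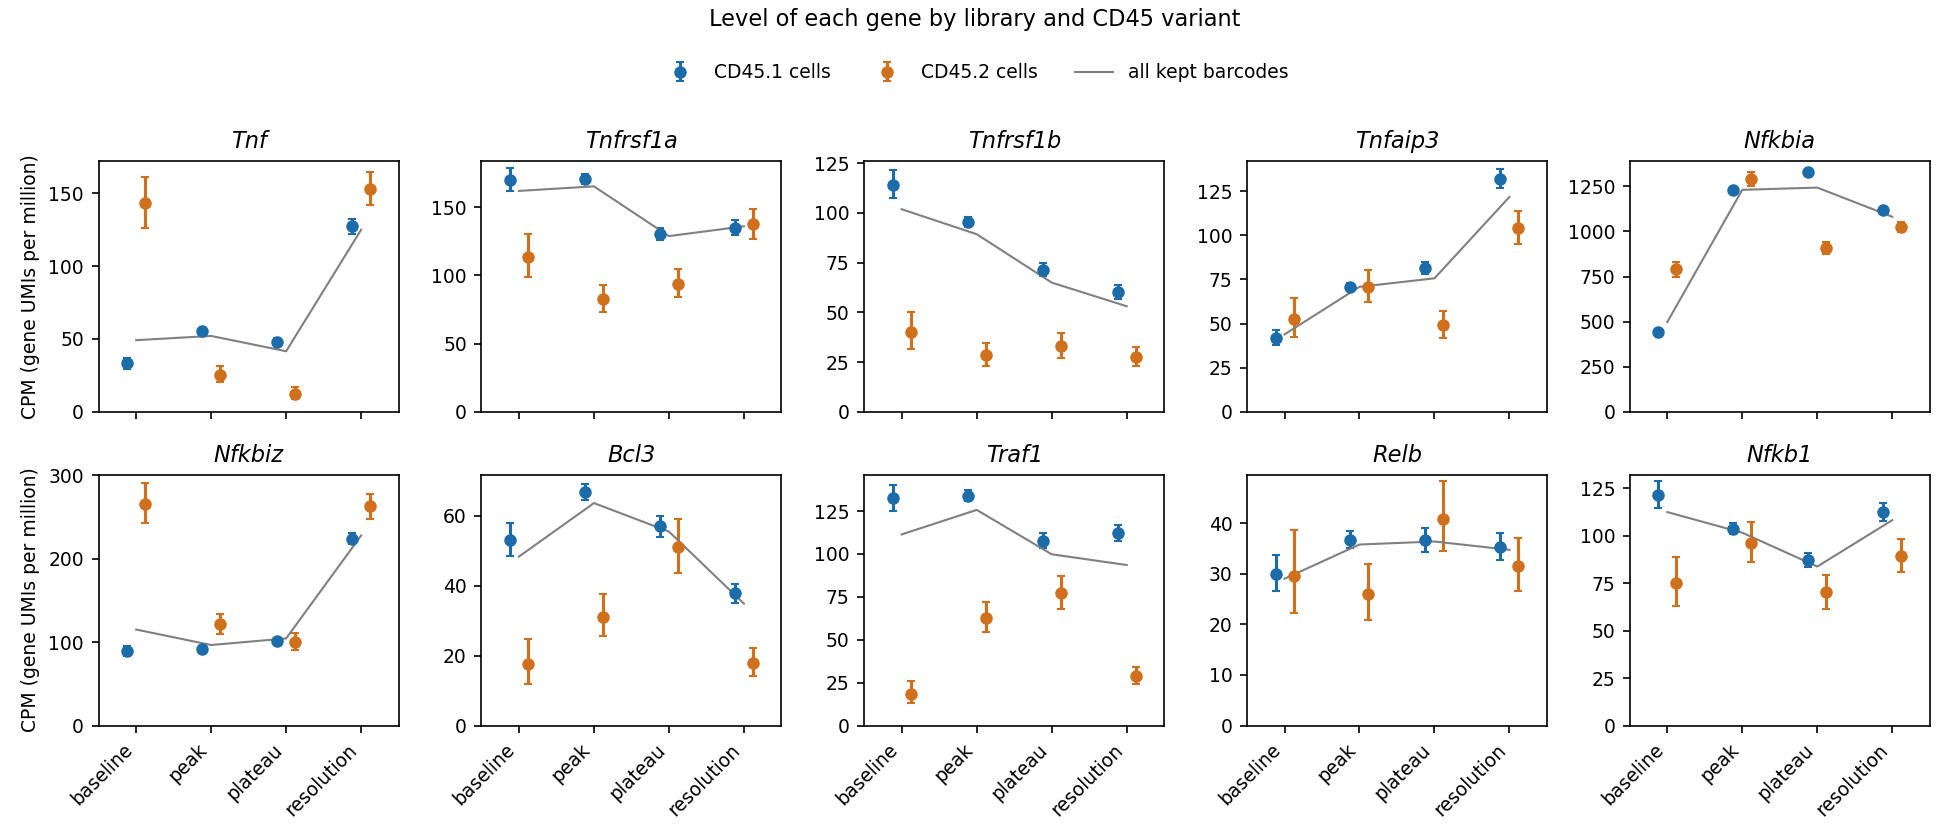
Level of each of the 10 genes (CPM, bars 95% counting intervals) in CD45.1 cells (blue) and CD45.2 cells (orange) at each stage, with a grey line for all kept cells. Tnf is highest at resolution (125 CPM over all cells), and at baseline its CD45.2 level (143 CPM) lies far above its CD45.1 level (33.2 CPM).

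Tnf, the ligand, was highest at resolution. It stood at 49.2 CPM in the baseline library (95% interval 45.3 to 53.3), 52.1 CPM at peak (50.2 to 54.0), 41.6 CPM at plateau (39.3 to 44.0) and 125 CPM at resolution (121 to 129). The first 3 stages lie close together and resolution lies apart from them, 3.01-fold above plateau (2.82 to 3.21) and 2.54-fold above baseline (2.33 to 2.78). Peak over baseline was 1.06-fold, with an interval of 0.969 to 1.16 that includes 1. Cells with a Tnf UMI made up 7.69% of baseline, 7.70% of peak, 7.48% of plateau and 15.2% of resolution cells after each cell was thinned to 2000 UMIs, with shallower cells left out (83, 444, 422 and 572). Without thinning the shares were 21.2%, 17.4%, 16.6% and 26.5%. Fibroblast-like cluster 11, which should lack Tnf, had 2 of 376 thinned cells with a UMI (0.532%), well under each stage's share. The dissociation stress list, all 18 genes detected, summed to 9736, 9557, 8532 and 11399 CPM at the 4 stages, highest where Tnf was highest; its part in the Tnf level was not tested.

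The receptors did not move with the ligand. Tnfrsf1a, which encodes the broadly expressed receptor, had 162, 165, 129 and 136 CPM from baseline to resolution. Tnfrsf1b, which encodes CD120b, was lower at each later stage, with 102, 89.2, 64.9 and 53.0 CPM, so that resolution was 1.92-fold lower than baseline. Traf1, an adaptor that binds the second receptor, had 111, 126, 99.8 and 93.6 CPM.

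Among the feedback genes, Nfkbia was the most abundant and was higher in all 3 arthritis libraries. Its level was 498 CPM at baseline, 1231 at peak, 1243 at plateau and 1082 at resolution, and peak was 2.47-fold above baseline (2.41 to 2.54). Tnfaip3, which encodes the ubiquitin-editing enzyme A20, had 43.8, 70.8, 75.6 and 122 CPM, in the order of the stages and 2.78-fold above baseline at resolution (2.53 to 3.05). Nfkbiz, which encodes a nuclear IkB protein, had 115, 96.6, 104.5 and 228 CPM. Over all kept cells it was thus, like Tnf, high in the resolution library alone, 2.18-fold above plateau (2.09 to 2.28). CD45.1 cells were alike (89.2, 92.3, 101 and 224 CPM), but CD45.2 cells had 266 CPM at baseline and 263 at resolution. Within macrophage-like cluster 3 Nfkbiz stayed between 237 and 273 CPM over the 4 libraries. Over all kept cells Bcl3, another nuclear IkB protein, ran the other way, with 48.3, 63.6, 55.5 and 34.9 CPM, and was 1.59-fold lower at resolution than at plateau. Of the subunit genes, Relb, the member that varied least over the 4 libraries, stayed between 29.0 and 36.4 CPM (highest over lowest 1.25), and Nfkb1 between 83.9 and 113 CPM (1.34), close to Tnfrsf1a (1.28) and Traf1 (1.34).

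Counted by the 2-fold limit, 1 member of 10 was higher at peak than at baseline (Nfkbia), where 8.52% of 13084 genes were that much higher and 12.6% lower. No member passed the limit between plateau and peak, where 15.1% of 13501 genes were higher and 5.07% lower. At resolution against plateau 2 members were higher (Tnf and Nfkbiz), beside 13.4% higher and 10.5% lower of 13291 genes. At resolution against baseline 3 members were higher (Tnf, Tnfaip3 and Nfkbia), beside 11.8% higher and 5.61% lower of 12658 genes. The members' median log2 ratios were 0.13, -0.24, 0.01 and 0.10 in these 4 comparisons, and those of all genes were -0.13, 0.30, 0.06 and 0.18. TMM scaling put the all-gene medians at 0.07, 0.05, -0.03 and 0.04; with it, resolution against baseline held Tnf and Tnfaip3 above the limit, Nfkbia just under it (log2 0.97) and Tnfrsf1b beyond it downward (log2 -1.09).

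The rest of the pathway, taken from lists by role, gives the setting. Among the 4 further ligand and shedding genes tested (of 5 in the list), Tnfsf9, the ligand of the costimulatory receptor 4-1BB, had 285 CPM at resolution against 46.5 at plateau and 72.0 at baseline. Receptor-proximal signalling genes hardly passed the limit, with 0 of 17 at peak and at resolution against baseline, 1 lower at plateau against peak (Map3k14, log2 -1.01) and 1 higher at resolution against plateau (Map3k8, log2 1.12). The subunit gene Rel had 141 CPM at peak against 329 at baseline, and 229 at resolution against 91.3 at plateau. Of 12 other inhibitors 2 were higher at peak than at baseline, Ier3 with 969 against 269 CPM and Nfkbie with 80.6 against 38.1 CPM. At resolution the inhibitor Tnip3, which encodes a partner of A20, had 170 CPM against 50.3 at baseline and 31.7 at plateau.

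NF-kB target genes were the list with most genes past the limit at peak against baseline, 12 of 23 higher and 4 lower, with a list median log2 ratio of 1.02 beside -0.13 for all genes. Il1b, an inflammatory cytokine gene, had 2865 CPM at peak against 957 at baseline, and the chemokine gene Cxcl3 79.6 against 3.68 CPM. In the other direction the chemokine gene Ccl5 had 18.3 CPM at peak against 115 at baseline. Ccl5 leads NK-like cluster 19, and the 6 NK cell markers summed to 21.4 CPM at peak against 116 at baseline. The part of NK-like cells in Ccl5 was not tested. At plateau against peak 1 target was higher and 7 lower, with Cxcl10, an interferon-induced chemokine gene, at 39.9 against 292 CPM. Targets split at resolution against plateau, 4 higher and 6 lower: Icam1, an adhesion molecule gene, had 119 against 33.1 CPM, while Cxcl3 had 15.8 against 99.3 CPM. In the same comparison 5 of 18 dissociation stress genes were higher, Atf3 among them (log2 1.81), and none lower; their part was not tested.

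Tnf was carried by a few clusters, and these changed with the stage. At baseline the macrophage-like cluster 9 (led by Vsig4 and Lyve1) held 29.3% of Tnf UMIs in 12.8% of cells, and the unnamed cluster 5 held 19.4% in 3.0% of cells. At peak and at plateau the unnamed cluster 0, led by the chemokine genes Cxcl3 and Cxcl2, held 67.8% and 68.4% of Tnf UMIs in 17.5% and 19.2% of cells. At resolution cluster 0 was almost gone, and cluster 5 (led by Mmp12 and Mgl2) held 38.7%, macrophage-like cluster 3 (Aqp1, Fxyd2) 34.8% and cluster 9 15.2%. A single baseline cell held 33 Tnf UMIs, 5.61% of that library's Tnf. Since Tnf, Tnfaip3, Nfkbia, Nfkbiz and Traf1 were among the variable genes used for clustering, their cluster levels are a description.

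**Figure D2:**
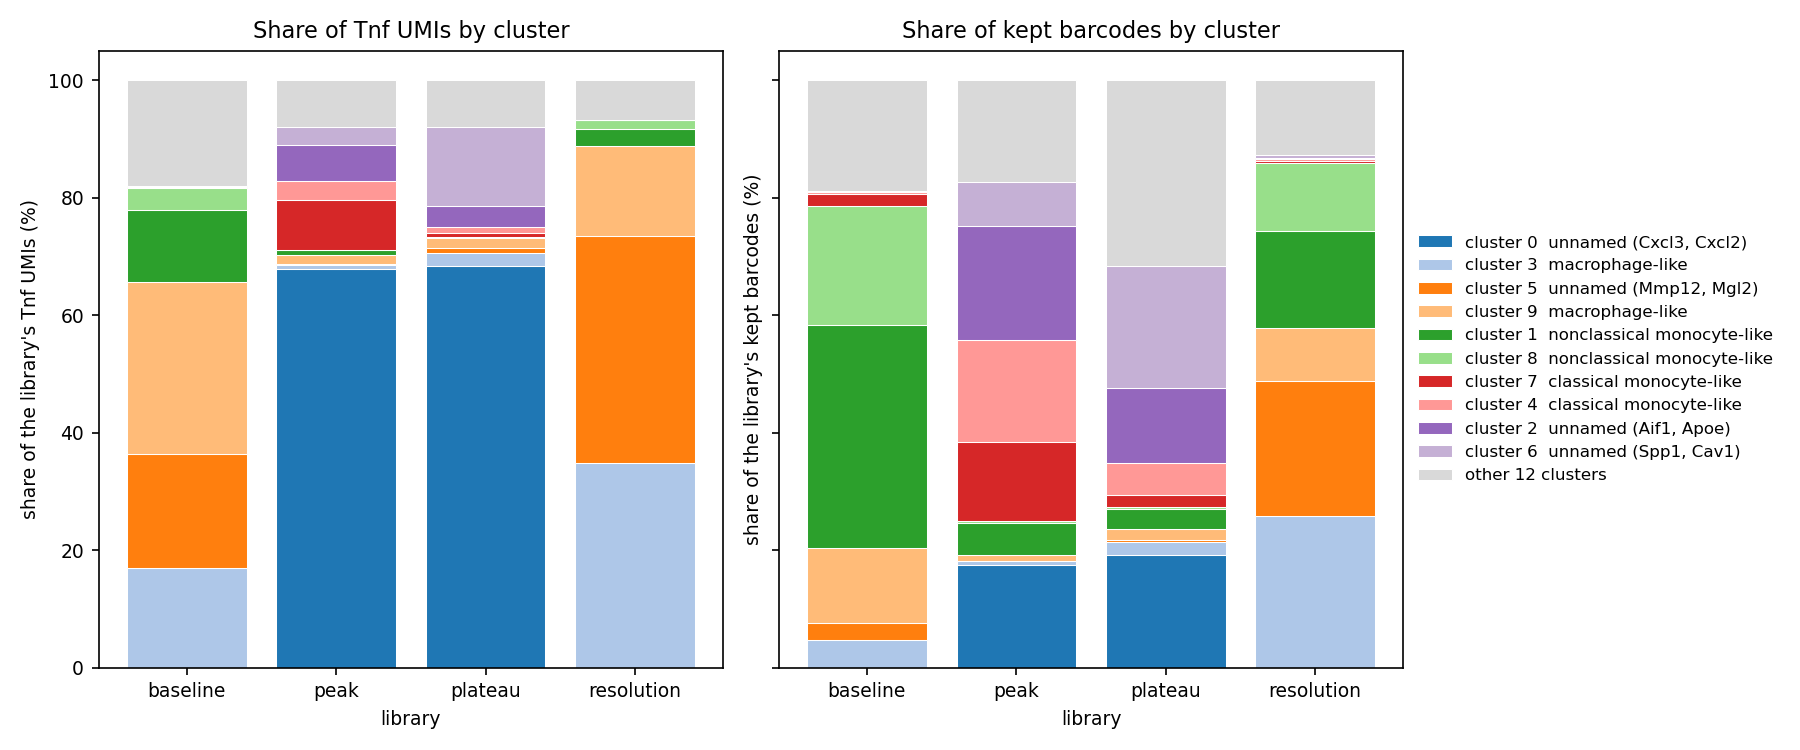
Share of Tnf UMIs (percent, left panel) and share of kept cells (percent, right panel) by cluster, with a stacked bar per library. Cluster 0 holds 67.8% of Tnf UMIs at peak and 68.4% at plateau, and clusters 5, 3 and 9 hold 38.7%, 34.8% and 15.2% at resolution.

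In order of its pooled level, Tnf was at 305.5 CPM in 27 mast-like cells (196 to 455, from 24 UMIs), 227 in 63 basophil-like cells (176 to 288), 209 in cluster 0 (202 to 217), 183 in cluster 3, 169 in cluster 5 and 157 in cluster 9. Neighbours in this order do not differ beyond their spread, because libraries within a cluster differ more: cluster 3 had 241, 104, 78.1 and 188 CPM and cluster 9 had 138, 92.9, 59.0 and 189 CPM from baseline to resolution. Both macrophage-like clusters were thus lowest at plateau, and cluster 0, with enough cells at peak and plateau alone, was also lower at plateau (189.6 CPM) than at peak (219 CPM). Nonclassical monocyte-like clusters 8 and 1 had 25.6 and 17.7 CPM, classical monocyte-like clusters 7 and 4 had 28.6 and 9.9 CPM, and osteoclast-like cells had 4.2 CPM. In bulk terms, fewer Tnf-high cells and less Tnf per cell both lower a library's CPM; with clusters weighted equally, Tnf at resolution was still above plateau (log2 1.85) but not above baseline (log2 -0.12), over 10 and 8 shared clusters.

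The other members had their own places. Tnfrsf1b was highest in nonclassical monocyte-like cluster 8, at 235, 251 and 239 CPM in the baseline, peak and resolution libraries, and low in osteoclast-like cells at 12.5 CPM; macrophage-like clusters 9 and 3 had 45.03 and 37.6 CPM pooled, but between 31.6 and 124 CPM and between 26.6 and 80.7 CPM by library. Traf1 also peaked in cluster 8, at 403 CPM, ahead of type 2 dendritic-like cells at 330.4 and NK-like cells and cluster 0 at 257, and was at 8.3 CPM in cluster 9. Traf1 stayed between 5.62 and 19.0 CPM in every library of clusters 9 and 3, both high in Tnf, while cluster 0 held all 3 genes, with Tnfrsf1b at 164.5 CPM. Tnfrsf1a was highest in the monocyte-like clusters, whose order is not settled: by library it ran between 198 and 289 CPM in cluster 1, between 224 and 241 in cluster 4 and between 199 and 267 in cluster 7. The 27 mast-like cells had no Tnfrsf1a UMI. Bcl3 was at 98.9 and 98.4 CPM in monocyte-like clusters 4 and 1 and at 18.0 and 16.4 CPM in clusters 3 and 5.

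Nfkbia, Tnfaip3 and Nfkbiz were all highest in the basophil-like cells, all 63 of them from the peak library, at 7602, 1097.5 and 1791 CPM. Below these, Nfkbia was at 2629 CPM in cluster 0, 1659 in NK-like cells, 1565 in cluster 5 and 1430 in osteoclast-like cells, the last with almost no Tnf. At plateau osteoclast-like cells held 42.7% of Nfkbia UMIs in 14.3% of cells, but these cells are deep, with a median of 25889.5 UMIs. Their Nfkbia level there was near that of the whole library (1243 CPM), at 1441 CPM in CD45.1 and 1180 CPM in CD45.2 cells. Tnfaip3 was at 687 CPM in mast-like and 379 in NK-like cells, at 225 CPM in cluster 5 and 204 in cluster 0 but 18.4 in cluster 4, and cluster 5 held 56.2% of its UMIs at resolution. Nfkbiz was at 916.5 CPM in mast-like cells, 368 CPM in cluster 9, 274 in cluster 5 and 262 in cluster 0, and at 7.2 CPM in osteoclast-like cells, so that these cells had much Nfkbia with little Nfkbiz.

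**Figure D3:**
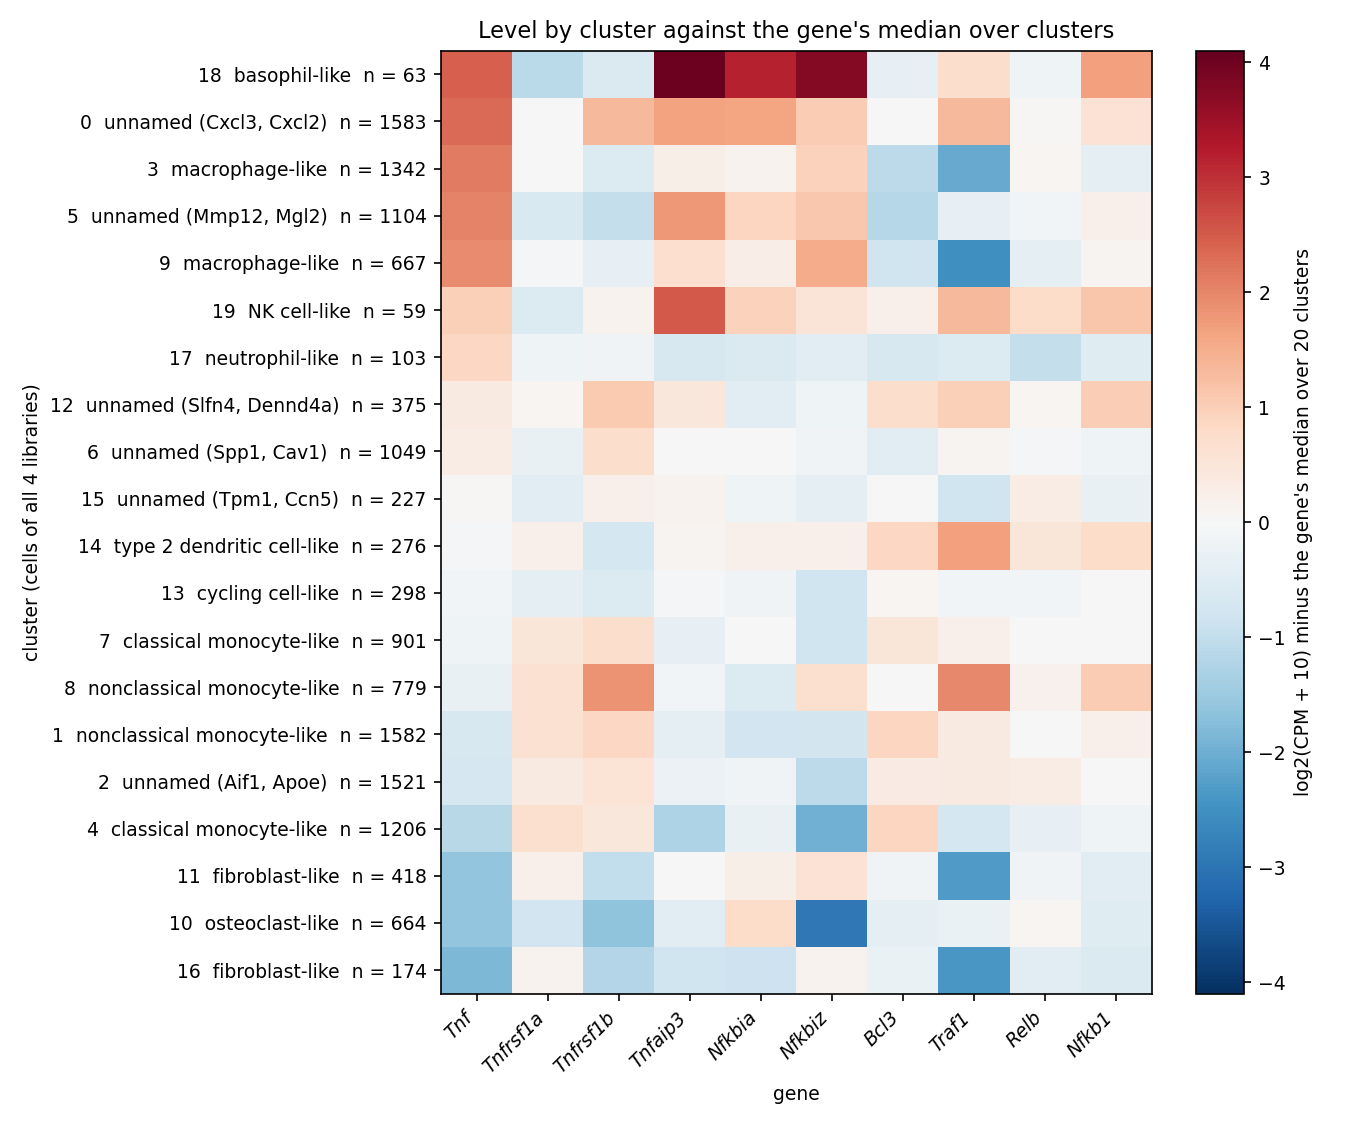
Level of each member in the 20 clusters with at least 50 cells, as log2(CPM + 10) minus the gene's median over clusters, clusters ordered by Tnf. Tnf ranges between 2.1 and 227 CPM over these clusters, and Tnfrsf1b and Traf1 are high in cluster 8 (238 and 403 CPM), where Tnf is low (25.6 CPM).

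Across these 20 clusters, and over 9554 genes, the genes whose log2 levels ran most like Tnf were Cxcl2 (Pearson r = 0.82), Ncf1 (0.81), Anxa11 (0.81), Tagap (0.80) and Nfkbid (0.79). Tnfaip3 ranked 19th (r = 0.73) and Nfkbiz 23rd (0.71), Nfkbia came at rank 102 (0.59) and Nfkb1 at 410 (0.47), while Bcl3 (-0.47) and Tnfrsf1a (-0.43) ran the other way. For Nfkbia the most alike were Tnfaip3 (0.87), Furin (0.82) and Sqstm1 (0.81). For Tnfrsf1b they were Gm6377 (0.94), Slc11a1 (0.93) and Tlr13 (0.93). These are descriptions over clusters that share libraries and differ in depth.

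Donor and host cells differed in Tnf CPM in a direction that changed with the stage. Tnf was at 33.2 CPM in CD45.1 cells against 143 in CD45.2 cells at baseline, 55.2 against 25.4 at peak, 47.7 against 12.5 at plateau and 127 against 153 at resolution. CD45.1 cells were thus lower at baseline, 4.31-fold, and at resolution, 1.20-fold, and higher at peak (2.18-fold, 1.76 to 2.72) and plateau (3.82-fold, 2.82 to 5.31). In host cells alone Tnf was 5.62-fold lower at peak than at baseline and 12.1-fold higher at resolution than at plateau (9.004 to 17.1). In donor cells alone these steps were 1.66-fold higher (1.48 to 1.88) and 2.67-fold higher (2.49 to 2.87). Osteoclast-like cluster 10, with a median of 25889.5 UMIs per cell, held 20.5% of host cells at peak, 23.0% at plateau and 0.274% at resolution. In it Tnf was at 4.46 CPM in CD45.1 against 1.43 in CD45.2 cells at peak (21 and 2 UMIs). At plateau it was at 2.89 against 6.21 CPM there (27 and 11 UMIs). The part of these cells in the host steps was not tested. The thinned share of cells with a Tnf UMI was 5.22% of CD45.1 against 19.3% of CD45.2 cells at baseline and 14.9% against 19.6% at resolution. It was 7.75% against 7.25% at peak and 7.90% against 6.01% at plateau. At peak and plateau the host intervals (4.02% to 11.9% and 3.04% to 10.5%) include the donor shares. The share of cells thus did not differ there beyond counting error, while CPM did.

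Over the 4 libraries, edgeR's quasi-likelihood test with the library as a block put Tnf at a log2 difference of 0.36 (SE 0.62) between CD45.1 and CD45.2 cells (adjusted p = 0.711), so the variants did not differ beyond the spread between libraries. Those p-values measure the spread between 4 stages, each with 1 library.

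The members that passed were higher in CD45.1 cells by that edgeR test, 4 of 10 beside 9.95% of 11498 genes higher and 9.85% lower, and no member was lower. Tnfrsf1b was at 114, 95.4, 71.3 and 60.3 CPM in CD45.1 cells at the 4 stages, against 40.0, 28.5, 33.1 and 27.4 CPM in CD45.2 cells. No library overlaps, and edgeR put the difference at log2 1.59 (SE 0.19, adjusted p = 0.0043). Traf1 was at 132, 134, 108 and 112 CPM in CD45.1 cells against 18.6, 62.8, 77.1 and 28.7 CPM in CD45.2 cells, also without overlap (edgeR log2 1.75, SE 0.38, adjusted p = 0.0239). The ratio was widest at baseline, 7.10-fold, and narrowest at plateau, 1.40-fold. Bcl3 was at 53.0, 66.7, 57.0 and 37.8 CPM in CD45.1 cells against 17.5, 31.1, 51.0 and 18.0 CPM in CD45.2 cells, higher in 4 of 4 libraries though barely at plateau (edgeR log2 1.16, SE 0.26, adjusted p = 0.0254). Nfkb1 was at 122, 104, 87.2 and 113 CPM against 75.1, 96.3, 70.2 and 89.3 CPM, higher in 4 of 4 libraries with the smallest step of these genes (edgeR log2 0.57, SE 0.16, adjusted p = 0.0450). Only Tnfrsf1b passed whichever library was left out (edgeR adjusted p between 0.00821 and 0.0221). Traf1 was lost without peak (0.0721) or resolution (0.0648), Bcl3 without baseline (0.0611), peak (0.10003) or resolution (0.063), and Nfkb1 without any 1 library (0.0785 to 0.0963).

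The other receptor, Tnfaip3, Nfkbia, Nfkbiz and Relb did not pass. Tnfrsf1a was at 170.2, 171, 130.2 and 135 CPM in CD45.1 cells against 113, 82.7, 94.0 and 137 CPM in CD45.2 cells, close to the limit (edgeR log2 0.73, SE 0.22, adjusted p = 0.0578). It passed without the resolution library (edgeR adjusted p = 0.0324), without the filter on low counts (0.0229) and by DESeq2 (0.0193). Nfkbia was at 443, 1232, 1332 and 1117 CPM in CD45.1 cells against 789, 1289, 908 and 1024 CPM in CD45.2 cells, with the sign changing between stages (edgeR adjusted p = 0.630). Nfkbiz had 89.2 CPM in CD45.1 cells against 266 in CD45.2 cells at baseline, the same side as Tnf there, but 101 against 100.3 at plateau. Tnfaip3 and Relb had edgeR log2 differences of 0.41 and 0.34 (adjusted p = 0.136 and 0.190). The members' median was 0.49, beside -0.02 for all genes; scaling by library totals in place of TMM put the all-gene median at -0.23, with 781 genes higher and 1564 lower in place of 1144 and 1132, and 3 members past the limit.

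**Figure D4:**
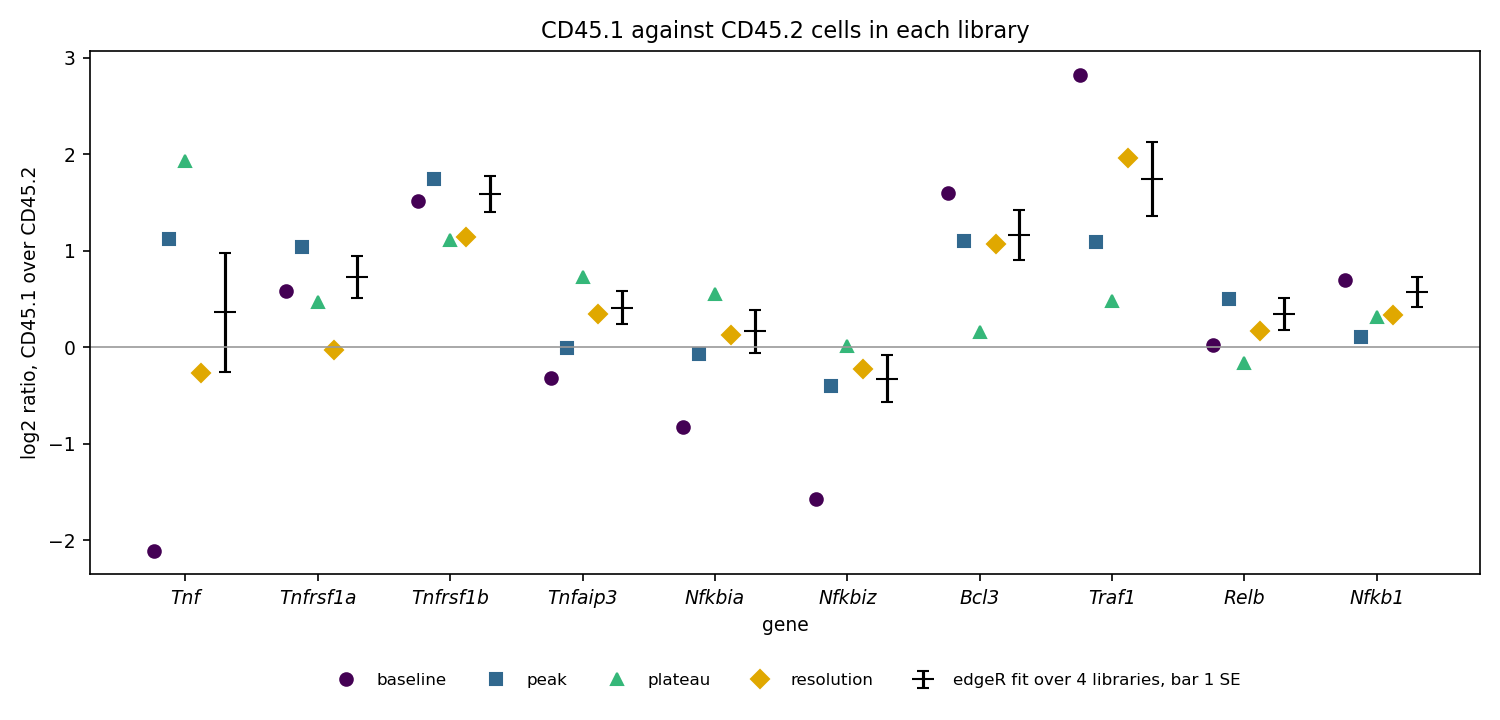
Log2 ratio of CD45.1 to CD45.2 CPM for each member in each library (points), with the edgeR estimate and 1 standard error. All 4 points of Tnfrsf1b, Traf1, Bcl3 and Nfkb1 lie above 0, while the points of Tnf lie on both sides (ratios between 0.232 and 3.82).

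The variants also differed in which clusters they filled; the part of this mix in the calls was tested only where clusters could be weighted equally. CD45.2 cells were in macrophage-like cluster 9 for 65.3% at baseline, 20.1% at peak, 19.2% at plateau and 40.7% at resolution. CD45.1 cells were 45.05% in nonclassical monocyte-like cluster 1 at baseline, and 28.2% in cluster 5 and 24.9% in cluster 3 at resolution. The 9 macrophage markers, all detected, summed to 821, 1180, 1554 and 3653 CPM in CD45.1 cells against 16473, 2911, 3152 and 11124 CPM in CD45.2 cells. With shared clusters weighted equally, which leaves 1 cluster at baseline and at peak, limma called no member and no gene, with 684 genes and no member at an unadjusted p of at most 0.05. Within the only shared cluster at baseline, macrophage-like cluster 3, Tnfrsf1b was lower in CD45.1 cells, at 16.4 against 36.4 CPM in CD45.2 cells, from 3 and 8 UMIs. In osteoclast-like cluster 10 it was at 12.8 against 13.6 CPM at peak and 11.9 against 14.1 CPM at plateau. Plateau clusters 3, 15 and 16 had 77.2 against 52.9, 86.5 against 74.1 and 21.3 against 19.6 CPM. Cluster 16 is fibroblast-like, and unnamed cluster 15 had a median of 693 UMIs per cell. Clusters 15 and 16 entered the equal weighting at plateau, as fibroblast-like cluster 11 did at resolution. Over all libraries, clusters 11 and 16 held 150 and 51 cells called CD45.1. At resolution Tnfrsf1b was at 110 CPM in CD45.1 against 80.3 in CD45.2 cells of cluster 1, 37.8 against 20.8 in cluster 3, 27.0 against 13.2 in cluster 5, 47.1 against 29.0 in cluster 9 and 15.4 against 2.98 in fibroblast-like cluster 11. Thus the 5 shared clusters of resolution were higher in CD45.1 cells, those of baseline and peak were not, and plateau was mixed. Several of these values rest on few UMIs. At resolution there were 7 and 1 in cluster 11, which is fibroblast-like, and 191 and 8 in cluster 5, and at plateau 5 and 2 in cluster 15. Differences within single clusters were not tested. Tnf at resolution was at 203 against 159 CPM in cluster 3, 171 against 127 in cluster 5 but 126 against 209 in cluster 9.

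Among the other pathway genes, 8 of 22 targets and 6 of 12 other inhibitors were higher in CD45.1 cells by edgeR and none lower, with list medians of 1.00 and 0.71 beside -0.02 for all genes. The chemokine gene Ccl5 differed by log2 5.35 (edgeR adjusted p = 0.00444) and Il1b by 2.92 (0.00425), while Cxcl2, at the highest level of the targets, did not pass (1.09, 0.235). Ccl5 leads NK-like cluster 19. The NK cell markers summed to 143, 21.4, 4.99 and 32.6 CPM in CD45.1 cells against 7.12, 3.17, 0 and 11.2 CPM in CD45.2 cells, and their part was not tested. The inhibitors that passed included Tnip3 (log2 2.34, adjusted p = 0.00271), Nfkbie (1.46, 0.00678) and Zfp36 (0.82, 0.025), which encodes a protein that destabilises Tnf mRNA. Rel was 1 of 3 other subunit genes to pass (log2 1.30, adjusted p = 0.00626), and Map3k14, Ikbkb and Birc3 were 3 of 17 receptor-proximal genes to pass (1.37, 1.00 and 0.89). None of the 4 further ligand and shedding genes tested, of 5 in the list, passed in edgeR, with 0 at an unadjusted p of at most 0.05, 1 by DESeq2 and 0 by limma on equal clusters. Of 18 dissociation stress genes 3 were higher (Btg2, Junb and Dusp1) and 1 lower (Egr1), and the list summed to 9596, 9610, 8737 and 11285 CPM in CD45.1 cells against 10166, 7343, 6566 and 11781 CPM in CD45.2 cells, on the same sides as Tnf in each library; its part was not tested.

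At the protein level, CD120b was read as UMIs per 10000 antibody UMIs. It stood at 10.7 at baseline, 26.1 at peak, 55.3 at plateau and 26.4 at resolution, but 1 plateau cell held 5805 of that library's 12716 CD120b UMIs. Without cells of 100 or more such UMIs the values were 10.7, 24.6, 28.0 and 25.2, higher in all 3 arthritis libraries than at baseline on this scale. In mean UMIs per cell the same cells had 2.11, 2.51, 2.27 and 1.23, lowest at resolution, so the order of the stages depends on the scale. The median antibody stood at 6.62, 9.21, 8.65 and 19.2 per 10000, so that CD120b at resolution was nearer to it than at peak or plateau; no isotype control was used to set a background. CD45.1 cells had 10.8, 26.3, 58.5 and 25.7 against 13.2, 21.5, 26.4 and 19.3 in CD45.2 cells. The plateau gap rests on the single cell named above: without the high cells CD45.1 cells had 10.8, 24.7, 28.1 and 24.8. With TMM scaling, edgeR put the difference at log2 0.89 (SE 0.26, adjusted p = 0.0514 over 87 antibodies, of which 17.2% passed), and at 0.59 (adjusted p = 0.0978) without the high cells. With antibody totals in place of TMM, the scale of the values above, edgeR put it at 0.39 (adjusted p = 0.403). The size of the difference thus depends on the scaling, and the protein did not pass where its RNA did. Over 20 clusters the RNA and protein levels had a Pearson r of 0.40 and a rho of 0.41; osteoclast-like cells were low in both, at 12.5 CPM and 9.3 per 10000, while cluster 8, highest in RNA, had 20.5 per 10000 and cluster 6 the highest protein value without the high cells, 43.2.

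Cells with a Tnf UMI were then set against cells without one within each library, after each cell was thinned to 2000 UMIs. Tnfaip3 was at 164, 348, 356 and 226 CPM in cells with a Tnf UMI, against 38.9, 67.6, 84.0 and 91.8 CPM in cells without. Nfkbia was at 1441, 3656, 3256 and 1952 CPM with, against 467, 1092, 1033 and 834 CPM without. Nfkbiz was at 500, 517, 611 and 462 CPM with, against 139.8, 91.5, 123 and 190.3 CPM without. These 3 feedback genes were at least 2-fold higher in cells with a Tnf UMI in all 4 libraries, 3 of 9 members, beside 0.212% of 9431 genes (20 genes) that were so and 1.05% that were 2-fold lower. Their mean log2 differences were 1.96 ± 0.46 for Tnfaip3, 1.56 ± 0.23 for Nfkbia and 1.99 ± 0.55 for Nfkbiz (SD, n = 4 libraries; exact sign-flip p = 0.125 each, the smallest that 4 libraries allow).

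**Figure D5:**
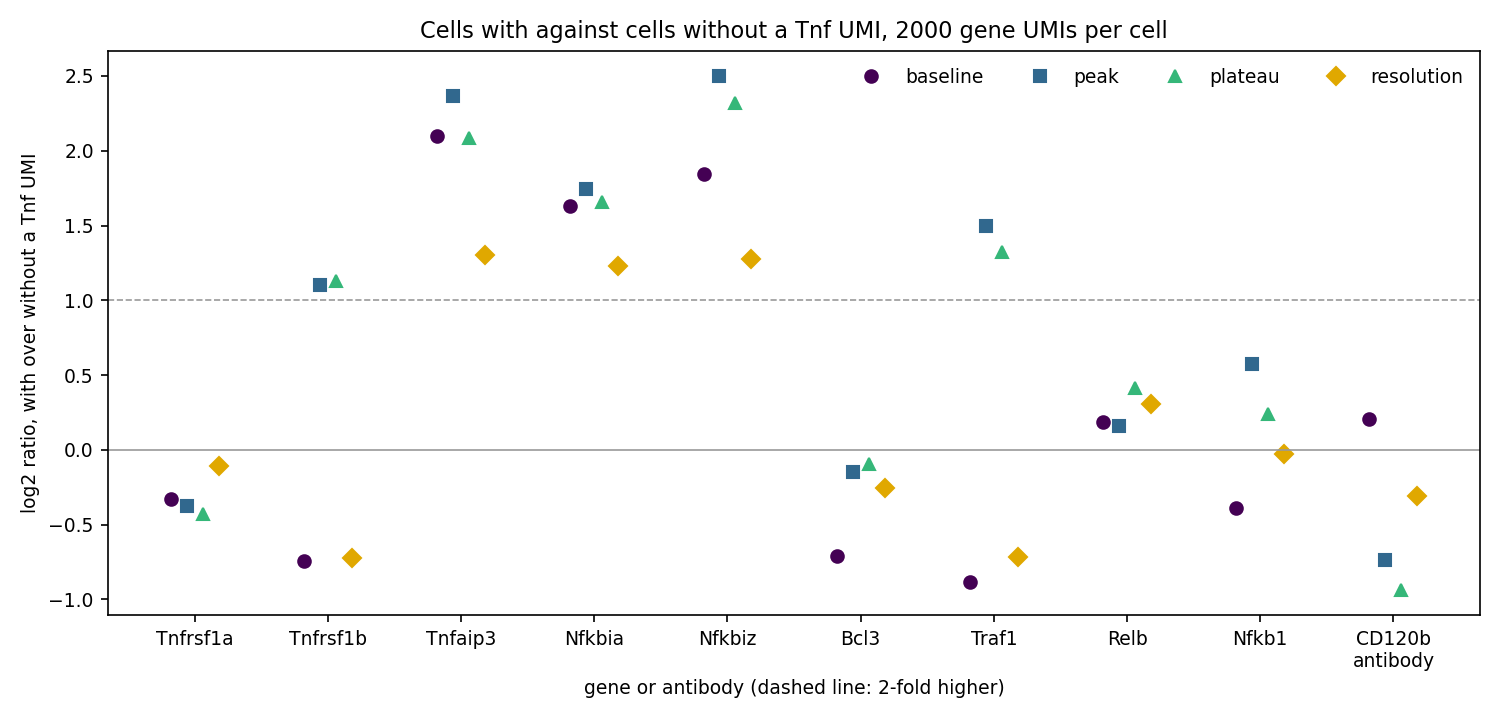
Log2 ratio of the level in cells with to cells without a Tnf UMI for 9 members and the CD120b antibody, one point per library, with a dashed line at 2-fold. Tnfaip3, Nfkbia and Nfkbiz lie past the line in all 4 libraries (mean log2 1.96, 1.56 and 1.99), while Tnfrsf1b and Traf1 lie on both sides of 0.

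The difference was smaller but of the same kind inside the cluster that held most Tnf-positive cells of each library (clusters 9, 0, 0 and 3), with means of 1.51, 1.25 and 1.65 and all 3 feedback genes still past 2-fold in 4 of 4 libraries. Tnfrsf1b and Traf1 changed sides with the stage: Tnfrsf1b differed by log2 -0.75 at baseline, 1.10 at peak, 1.13 at plateau and -0.72 at resolution, and Traf1 by -0.88, 1.497, 1.33 and -0.72. Inside the cluster with most Tnf-positive cells they averaged 0.34 and 0.60, above 0 in 3 of 4 libraries each (exact sign-flip p = 0.375 and 0.25, 4 libraries). Over all clusters Relb was higher in 4 of 4 libraries by a mean of 0.27, Tnfrsf1a and Bcl3 were lower in 4 of 4 (-0.31 and -0.30), and CD120b averaged -0.44. Inside the cluster with most Tnf-positive cells Relb averaged 0.36, Tnfrsf1a -0.09, Bcl3 0.44 and CD120b -0.55. There Relb and Bcl3 were above 0 in 3 of 4 libraries each and Tnfrsf1a in 2 of 4. Without thinning, over all clusters, Relb averaged -0.008, and Tnfrsf1a and Bcl3 were above 0 in 1 of 4 libraries each. Among the 20 genes past 2-fold in all 4 libraries, picked here after their values were seen, were also Cxcl3 (2.82), Il10 (2.47), Cxcl2 (2.45), Tnfsf9 (2.01), Ier3 (1.31) and Icam1 (1.26), and the mast cell genes Tpsb2 (4.91) and Cpa3 (4.62). The dissociation stress sum was higher by a mean of log2 0.35 in 4 of 4 libraries; its part in the split was not tested.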

How the data were processed

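The 4 droplet libraries of sorted synovial cells, 1 a stage, carried RNA and antibody counts. The deposited matrices hold raw UMI counts per gene and per antibody, made by the authors with Cell Ranger 6.1.2 on mm10, per the submitters' processing notes, which also list Seurat 4.4.0 with no step. Near-identical pairs (Bcl2a1b and Bcl2a1d, Hspa1a and Hspa1b) are uncertain, since the counting could split them. Cells were kept at 300 or more genes and at most 10% mitochondrial UMIs; no doublet caller was run. Pairs of libraries shared 1 to 10 barcodes. CPM intervals are exact Poisson and stage-ratio intervals exact conditional binomial ones; a gene entered with at least 30 UMIs over both libraries. Counts summed per library and CD45 variant were tested with edgeR 4.0.16 (TMM, quasi-likelihood, library as block, Benjamini-Hochberg adjustment, 0.05), with DESeq2 1.42.0 and limma 3.58.1 as alternatives. The block pairs both variants of 1 library, which come from the same mice. Clusters were made with scanpy 1.11.5 and leidenalg 0.10.2 and named from marker lists. Named genes were the members, from each list the 2 highest and 2 lowest ratios among genes past the limit, the gene of highest level, and for likeness the 5 highest r. The members and lists were chosen with earlier results of these data known. The edgeR step was tested on simulated data.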

Additional observations from a re-analysis of the deposited data

Results flagged for a closer look

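Tnf changed sides between donor and host cells: the CD45.1 to CD45.2 ratio of CPM was below 1 at baseline (0.232) and at resolution (0.833), and above 1 at peak (2.18) and plateau (3.82). The difference between stages was not tested, with 1 library a stage. The baseline host value rests on 190 cells, of which 65.3% were in macrophage-like cluster 9, against 20.1% and 19.2% at peak and plateau. Within macrophage-like cluster 3, the only cluster shared at baseline, Tnf was at 65.5 CPM in CD45.1 against 373 in CD45.2 cells (12 and 82 UMIs). In the same cluster at plateau it was at 96.5 against 52.9 CPM (20 and 8 UMIs).

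Nfkbia changed sides too, with a ratio of 0.562 at baseline and 0.96 at peak, and of 1.47 at plateau and 1.09 at resolution, and this difference was not tested either.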

How the results depend on the processing

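Of the counts and comparisons the results lead with, 45 recomputed values stayed within 1.5 times or on the same side, and 12 moved. In CD45.2 cells alone 1 member was past 2-fold higher (Traf1) and 2 lower (Tnf and Nfkbiz) at peak against baseline, and 1 was lower (Tnf) at plateau against peak. At resolution against plateau 3 were higher (Tnf, Tnfaip3 and Nfkbiz) and 2 lower (Bcl3 and Traf1), and at resolution against baseline there were 0. In those cells 10% of genes were 2-fold higher and 12.6% lower in the first comparison, 2.93% and 3.02% in the second, 15.5% and 13% in the next and 3.33% and 2.18% in the last. The stricter cell filter left 1 member, Tnf, at resolution against plateau. Clusters weighted equally left 1 (Tnf) at resolution against plateau and 0 at resolution against baseline, where Tnf reversed to log2 -0.12. For CD45.1 against CD45.2, leaving out 1 library gave 1 to 3 members, equal clusters 0, and the fit without the replicate block 1 (Tnfrsf1b) and 513 genes in place of 2276. Beside 2276, no filter gave 2976 genes and DESeq2 2876, each with 5 members (Tnfrsf1a was added), while leaving out baseline gave 1471 genes, leaving out peak 936 and equal clusters 0. In the same comparison Tnf reversed to -0.13 without the replicate block, -0.14 without plateau (leaving out 1 library gave -0.14 to 1.07) and -0.42 with equal clusters, Nfkbia to -0.0513 with library totals, and Tnfrsf1a, Tnfrsf1b and Traf1 to -0.092, -0.0167 and -0.13 with equal clusters; the cause was not tested. CD120b stayed on its side of the limit in every alternative (edgeR adjusted p 0.0514 to 0.403). Tnfaip3, Nfkbia and Nfkbiz stayed past 2-fold in every alternative of the split by Tnf UMIs. Leaving out fibroblast-like cells and cluster 15, and cells of very high CD120b, was chosen after seeing the data. No paired analysis was possible between stages because each stage has 1 library. Equal clusters rest on 1 cluster at baseline and at peak, and the 190 to 730 host cells a library limit the CD45.2 values.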
